A study of Saccharomyces cerevisiae with 48 samples.

Results

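The 8 enzymes that build heme in baker's yeast, the carrier protein that feeds them glycine and the heme-sensing regulator Hap1 were followed through 48 RNA-seq libraries. The 10 genes, chosen by name from the 6713 genes measured, were HEM25, HEM1, HEM2, HEM3, HEM4, HEM12, HEM13, HEM14, HEM15 and HAP1. None of the 10 was listed without reads in any library. The libraries came from 3 natural isolates of Saccharomyces cerevisiae, each a single isolate: the West African strain NCYC3290 (WA), the mosaic strain Y7568 taken from papaya (PAP) and the mosaic strain IL01 from Illinois. Each strain grew in rich medium (YPD) alone or with 0.8% 1-butanol, 1% isobutanol or ethanol, the last at 4% with oxygen and 3% without. Each medium was run aerobically in shaking flasks and anaerobically in a chamber with stirred flasks, with 2 replicates per group collected on different days, which gave 24 groups. Oxygen supply and the way of culture changed together, so that the effects of each cannot be told apart. The comparisons asked how transcript levels of the pathway differed without oxygen, between the strains and in each alcohol.

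Heme is made in a chain of steps that starts and ends in the mitochondrion and passes through the cytosol. Hem25 brings glycine into the mitochondrion, where Hem1, aminolevulinate synthase, joins it to succinyl-CoA. In the cytosol Hem2, Hem3, Hem4 and Hem12 build the porphyrin ring and trim its side chains. Hem13, coproporphyrinogen oxidase, and Hem14, protoporphyrinogen oxidase, carry out the oxidation steps that use molecular oxygen, and Hem15, ferrochelatase, inserts the iron. Hap1 is a zinc cluster transcription factor activated by heme; among its known targets is ROX1, whose product represses HEM13 and other hypoxic genes when oxygen and heme are present.

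Levels are given as RPKM, reads scaled to the length of the gene and to the mapped reads of the library, a share that does not tell more RNA of a gene in every cell from less RNA of other genes. The reads behind the values numbered 7480286 to 13938540 per library, and Pearson's r between the log2 RPKM of replicates was 0.933 to 0.989. Of these reads 55.49% to 84.33% (median 79.39%) lay in the genes whose whole reads were recovered, as described below. The share was lowest in PAP YPD anaerobic replicate 2 (55.49%), WA 1-butanol anaerobic replicate 1 (59.04%) and WA isobutanol anaerobic replicate 1 (66.41%). RPKM is scaled to all mapped reads, so a lower share goes with lower values of these genes in a library. The libraries labelled WA ethanol anaerobic went against the other WA libraries. In both of them 10 genes stood at 5 RPKM or more that stayed at 0.2 RPKM or less in all 14 other WA libraries, and 4 genes showed the reverse, while the same count was 0 in each of the other 23 groups. REE1, for example, was at 33.1 and 43.0 RPKM in these libraries and without reads in the other 14, whereas SNZ3 was without reads in both and at 6.22 to 32.6 RPKM in the other 14. Tests and means of anaerobic ethanol are given with and without these libraries, and the levels over all 24 anaerobic libraries include them.

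The stretches of DNA upstream of the 5 genes that were higher without oxygen are printed, together with that of HEM1, whose level did not pass the test. They were searched for motifs of regulators of the oxygen and heme response, and binding was not measured. Each run is the 250 bases that end 100 bases before the start codon, read 5′ to 3′ on the gene's strand from the RefSeq R64 genome, and capitals mark CCAAT, the Hap2/3/4/5 motif, and ATTGTT, the core of the Rox1 motif, on the gene's strand. The windows are chrIV:546292-546541 (HEM13), chrV:182250-182499 (HEM14), chrXV:662051-662300 (HEM15), chrXII:646065-646314 (HAP1) and chrIV:927102-927351 (HEM1), each on the + strand, and chrIV:247713-247962 (HEM25) on the - strand.
HEM13: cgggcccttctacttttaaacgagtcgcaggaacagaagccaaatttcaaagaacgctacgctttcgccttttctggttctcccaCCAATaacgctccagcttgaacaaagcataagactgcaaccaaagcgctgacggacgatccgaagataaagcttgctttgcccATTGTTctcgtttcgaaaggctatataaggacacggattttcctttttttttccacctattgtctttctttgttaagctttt
HEM14: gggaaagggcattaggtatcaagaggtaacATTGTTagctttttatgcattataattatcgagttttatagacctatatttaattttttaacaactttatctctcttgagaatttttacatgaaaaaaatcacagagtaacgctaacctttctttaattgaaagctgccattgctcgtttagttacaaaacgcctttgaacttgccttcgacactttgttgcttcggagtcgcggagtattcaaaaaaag
HEM15: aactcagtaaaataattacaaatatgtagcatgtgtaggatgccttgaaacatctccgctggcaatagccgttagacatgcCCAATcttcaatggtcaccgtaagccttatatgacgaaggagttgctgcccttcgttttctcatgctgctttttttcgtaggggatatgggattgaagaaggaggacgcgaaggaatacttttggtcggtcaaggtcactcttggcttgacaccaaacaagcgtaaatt
HEM25: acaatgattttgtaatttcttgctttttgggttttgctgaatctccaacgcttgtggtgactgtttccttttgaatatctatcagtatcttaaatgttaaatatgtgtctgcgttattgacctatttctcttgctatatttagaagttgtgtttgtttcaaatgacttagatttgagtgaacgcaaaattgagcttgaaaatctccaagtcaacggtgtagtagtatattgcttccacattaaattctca
HAP1: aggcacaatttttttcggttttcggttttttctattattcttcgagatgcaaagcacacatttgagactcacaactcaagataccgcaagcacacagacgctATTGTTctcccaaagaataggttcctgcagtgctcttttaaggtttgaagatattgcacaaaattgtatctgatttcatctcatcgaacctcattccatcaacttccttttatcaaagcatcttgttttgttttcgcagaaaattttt
HEM1: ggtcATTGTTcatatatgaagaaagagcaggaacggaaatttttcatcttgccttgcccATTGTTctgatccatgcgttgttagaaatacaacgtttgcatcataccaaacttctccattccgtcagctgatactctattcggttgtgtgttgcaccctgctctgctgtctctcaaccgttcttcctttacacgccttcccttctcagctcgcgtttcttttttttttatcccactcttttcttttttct

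HEM13 held a CCAAT that began 265 bases and an ATTGTT that began 182 bases before its start codon. An ATTGTT began at 320 bases in HEM14, at 248 bases in HAP1 and at 346 and 291 bases in HEM1, and HEM15 held a CCAAT at 269 bases. HEM25 held neither motif on either strand. Among all 5984 genes with such a window, CCAAT occurred on either strand in 37.75% and ATTGTT in 27.82%, so that both are common. Of the windows not printed, HEM2 held 3 CCAAT on the opposite strand and 1 ATTGTT, HEM3 and HEM4 held 2 CCAAT each, and HEM12 held neither motif. The Hap1 motif, searched as CGG and TANCGG with 3 bases of any kind between them, was in none of the 10 windows and in 0.1504% of all windows. The 9 letters ATTGTTCTC, searched after their appearance in both windows was noticed, were shared by HEM13 and HAP1 and by 36 of the 5984 windows (0.6016%). A match describes the letters and says nothing of whether a factor binds.

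The genes lie on 5 chromosomes of the R64 assembly. HEM13 (YDR044W, IV:546642-547628) and HEM12 (YDR047W, IV:551860-552948) are close neighbours, and HEM1 (YDR232W, IV:927452-929098), HEM3 (YDL205C, IV:92762-93745) and HEM25 (YDL119C, IV:246689-247612) share their chromosome. HEM2 (YGL040C) is at VII:419527-420555, HEM14 (YER014W) at V:182600-184219, HEM4 (YOR278W) at XV:842817-843644, HEM15 (YOR176W) at XV:662401-663582 and HAP1 (YLR256W) at XII:646415-650923. HEM14 overlaps BUD25 on the other strand (V:183731-184700), and the sources used here do not say whether reads were counted by strand. BUD25 itself was listed at 0 to 1.31 RPKM over the 48 libraries, below the lowest value of HEM14, 4.30 RPKM. That low value does not tell whether reads of the overlap were left out of the count of HEM14. In the reference strain a Ty1 element interrupts the end of HAP1, and reads of the natural strains were aligned to that reference; whether they carry the element was not tested.

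With oxygen, the early steps carried the most transcript, and without oxygen HEM13 outweighed all the others. By the median of the 24 aerobic libraries the order was HEM1 (166 RPKM), HEM2 (148), HEM3 (73.4), HEM13 (73.0), HEM12 (68.0), HEM15 (56.0), HEM4 (18.9), HAP1 (17.7), HEM14 (11.4) and HEM25 (4.20). The lowest value of HEM2, 95.5 RPKM, lay just above the highest of HEM3, 95.3 RPKM, and HEM15 (31.6 RPKM or more) lay above HEM4 (23.5 RPKM or less). All other neighbours in this order overlapped in their ranges. In the 24 anaerobic libraries the order was HEM13 (3925 RPKM), HEM15 (246), HEM1 (135), HEM2 (133), HAP1 (106), HEM14 (93.9), HEM12 (79.2), HEM3 (74.9), HEM4 (18.5) and HEM25 (9.69). HEM13 there stood clear of HEM15, with a lowest value of 2290 RPKM against a highest of 589 RPKM, and HEM3 (44.8 RPKM or more) stood clear of HEM4 (29.2 RPKM or less), whereas the other neighbours overlapped. As a share of the summed RPKM of the 8 enzymes, HEM13 made up 8.49% to 21.6% with oxygen (median 11.7%) and 74.9% to 86.4% without (median 82.3%). HEM1 went from a median share of 26.1% to 3.08% although its own level did not pass the test given below, since the sum it is divided by was larger.

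**Figure D1:**
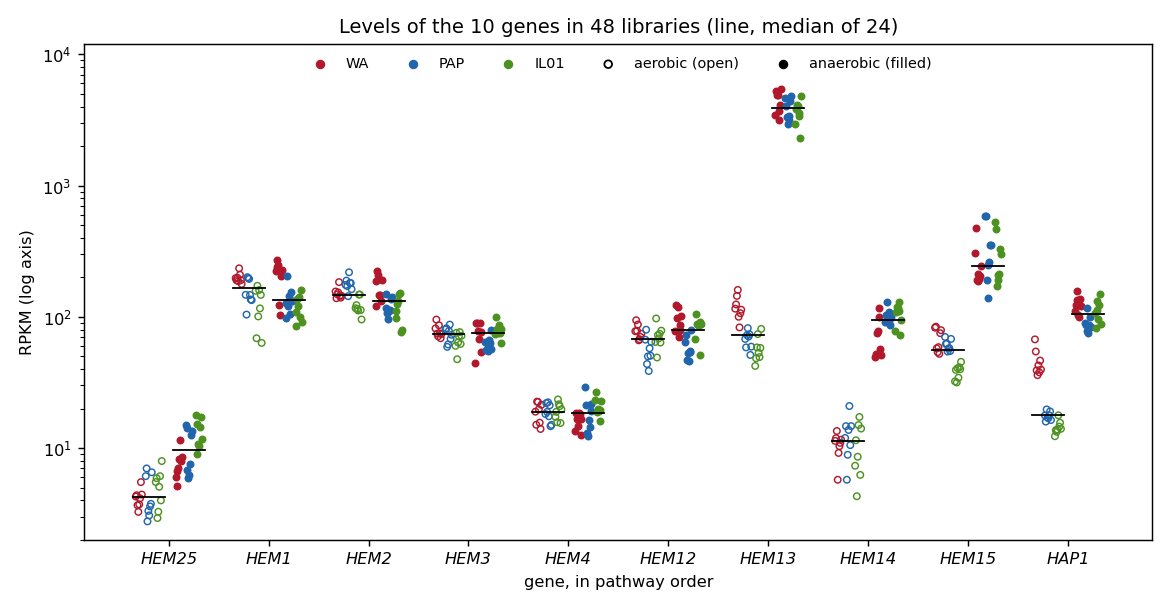
Levels of the 10 genes in RPKM on a log axis, in pathway order from the glycine carrier HEM25 to the regulator HAP1; each point is a library, open circles are aerobic, filled circles anaerobic, colours mark the strains and lines give medians of 24 libraries. HEM13 moved from 42.3–160 RPKM to 2290–5451 RPKM, and HEM13, HEM14, HEM15 and HAP1 were the genes whose aerobic and anaerobic points did not overlap.

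Without oxygen, transcripts of HEM25, of the last 3 enzymes and of HAP1 were higher in every medium tested, while those of HEM1, HEM2, HEM3, HEM4 and HEM12 did not pass the test within a medium. A gene is said to have passed where its adjusted p from limma, over all genes tested in the comparison, was under 0.01, the threshold of the study. In YPD 5 of the 10 genes were higher and 0 lower, where 25.3% of all genes tested were higher and 14.0% lower. In 1-butanol 5 were higher and 0 lower (all genes, 36.3% and 22.5%), and in isobutanol 5 and 0 (all genes, 30.5% and 18.3%). The median log2 difference of the 10 genes was 0.76 in YPD, 0.65 in 1-butanol and 0.69 in isobutanol, beside 0.27, 0.20 and 0.20 over all genes. HEM13, HEM14, HEM15 and HAP1 had each of their 24 anaerobic values above each of their 24 aerobic values, as had 4.14% of the 5704 genes with a mean of at least 1 RPKM, and none of the 10 had all of them below (3.28% of those genes). No such share was counted for the other separations given below, between strains, between media or between oxygen conditions within a medium. Values in ethanol are set side by side without a test, since the doses differed.

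HEM13, the coproporphyrinogen oxidase that uses molecular oxygen, differed most among the 10. In aerobic YPD the WA replicates had 144 and 160 RPKM, those of PAP 72.5 and 82.0 RPKM and those of IL01 58.5 and 73.9 RPKM. Without oxygen the WA replicates had 4943 and 4907 RPKM, PAP 3325 and 2924 RPKM and IL01 4107 and 4049 RPKM. The lowest anaerobic library thus exceeded the highest aerobic library many times over, and the 344 to 1312 reads behind the aerobic values over all media stood against 17736 to 53323 without oxygen. The log2 difference was 5.44 (SE 0.10, 43.3-fold, adjusted p = 1.1e-11) in YPD, 5.82 (SE 0.15) in 1-butanol and 5.80 (SE 0.14) in isobutanol. By size it ranked 30th of 5630 genes from the top in YPD, 37th of 5712 in 1-butanol and 29th of 5715 in isobutanol. In ethanol the means were 71.7 RPKM at 4% with oxygen and 3401 RPKM at 3% without (3393 RPKM without the libraries labelled WA ethanol anaerobic).

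HEM14, the protoporphyrinogen oxidase of the mitochondrion, was scarce with oxygen and plentiful without. In aerobic YPD its replicates had 13.5 and 5.73 RPKM in WA, while PAP had 5.74 and 8.89 RPKM and IL01 4.30 and 8.59 RPKM, from as few as 54 reads. In anaerobic YPD WA had 75.6 and 77.8 RPKM, PAP 129 and 90.9 RPKM and IL01 118 and 116 RPKM. WA was the low strain without oxygen, and the aerobic replicates of WA lay the furthest apart. The log2 difference was 3.77 (SE 0.26, 13.7-fold, adjusted p = 4.9e-07) in YPD, 2.78 (SE 0.14) in 1-butanol and 2.77 (SE 0.16) in isobutanol. In ethanol its means were 14.4 RPKM with oxygen and 109 RPKM without (110.0 RPKM without the libraries labelled WA ethanol anaerobic).

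The transcript of HEM15, which encodes the iron-inserting ferrochelatase, was higher as well. In aerobic YPD WA had 57.5 and 53.8 RPKM, PAP 62.5 and 54.4 RPKM and IL01 31.6 and 40.6 RPKM, against 192 and 211, 191 and 139, and 173 and 209 in the same strains without oxygen. The strains overlapped without oxygen, while IL01 was lowest with it. The log2 difference was 1.92 (SE 0.14, 3.77-fold, adjusted p = 9.4e-07) in YPD, 3.05 (SE 0.14) in 1-butanol and 2.31 (SE 0.11) in isobutanol. In ethanol its means were 50.3 RPKM with oxygen and 216 RPKM without (229 RPKM without the libraries labelled WA ethanol anaerobic).

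HAP1 itself was higher without oxygen too. In aerobic YPD its values were 39.1 and 35.95 RPKM for WA, with PAP at 19.7 and 17.0 RPKM and IL01 at 13.3 and 13.8 RPKM. Without oxygen WA had 157 and 134 RPKM, PAP 116 and 78.1 RPKM and IL01 114 and 132 RPKM. WA was the highest strain in both conditions, while PAP and IL01 were apart with oxygen and overlapped without it. The log2 difference was 2.502 (SE 0.14, 5.66-fold, adjusted p = 1.2e-07) in YPD, 2.06 (SE 0.14) in 1-butanol and 2.31 (SE 0.12) in isobutanol. Its means in ethanol were 24.6 RPKM with oxygen and 97.2 RPKM without (95.1 RPKM without the libraries labelled WA ethanol anaerobic).

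HEM25, the glycine carrier, was the least abundant of the 10, read 21 to 91 times per aerobic and 41 to 172 times per anaerobic library. In aerobic YPD WA had 3.67 and 3.26 RPKM, PAP 2.76 and 3.32 RPKM and IL01 2.93 and 3.27 RPKM, and in anaerobic YPD the same strains had 5.17 and 7.06, 6.75 and 5.87, and 8.97 and 10.7 RPKM. The 6 anaerobic values lay above the 6 aerobic ones, with IL01 the highest. The log2 difference was 1.17 (SE 0.22, 2.26-fold, adjusted p = 0.0011) in YPD, 1.08 (SE 0.18) in 1-butanol and 1.16 (SE 0.21) in isobutanol. The call in YPD was lost without WA YPD anaerobic replicate 2 (log2 difference 1.103, adjusted p = 0.011). Over all media the aerobic and anaerobic ranges of HEM25 overlapped, at 2.76 to 7.96 RPKM and 5.17 to 17.9 RPKM.

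The steps from HEM1 to HEM12 gave small differences with intervals on both sides of 0 or near it. HEM1, the aminolevulinate synthase, was at 100.7, 192 and 201 RPKM (lowest, median and highest of 6) in aerobic YPD and at 122, 171 and 271 RPKM in anaerobic YPD. Its log2 difference was 0.02 (95% interval −0.29 to 0.33) in YPD, 0.00 (−0.29 to 0.30) in 1-butanol and 0.21 (−0.18 to 0.60) in isobutanol. HEM2, which makes porphobilinogen, differed by 0.03 (−0.22 to 0.28) in YPD, and HEM3, which links porphobilinogen into a chain, by 0.19 (−0.09 to 0.47). These 3 genes overlapped between the conditions. HEM4, which closes the ring, was at 15.7, 22.4 and 23.5 RPKM with oxygen and at 12.4, 15.8 and 19.7 RPKM without in YPD, a log2 difference of −0.40 (SE 0.16, adjusted p = 0.06). That difference passed under quantile normalization (−0.76) and under centring on the median of each library (−0.75), which remove the shift of all genes, and in the fit of all 48 libraries, so that HEM4 was then called lower; in 1-butanol and isobutanol it was at 0.23 and 0.16. HEM12, the decarboxylase before HEM13, differed by 0.35 (SE 0.13, adjusted p = 0.038) in YPD and passed in the fit of all 48 libraries (adjusted p = 0.0034). HEM2 (−0.49) and HEM3 (−0.46) were called lower in 1-butanol under median centring.

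**Figure D2:**
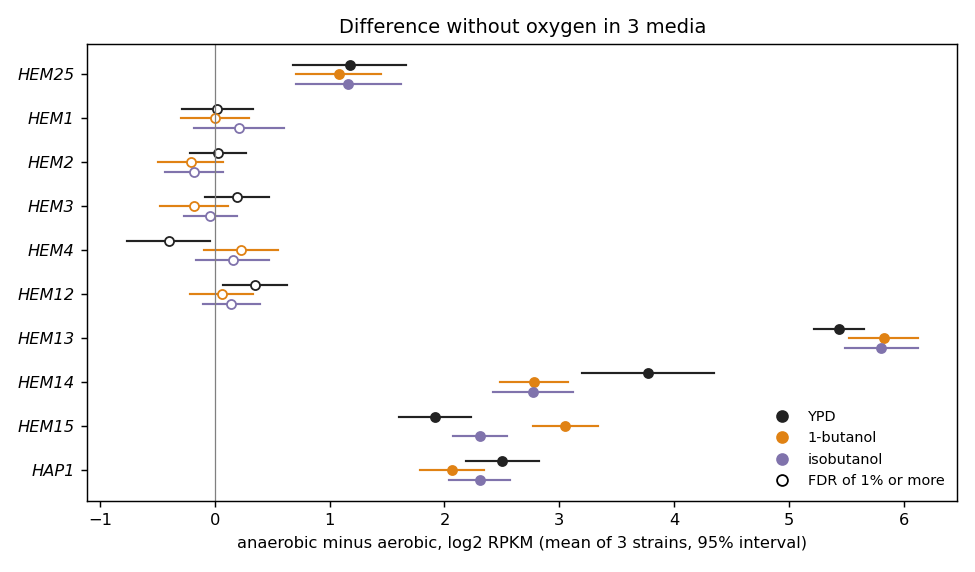
Difference between anaerobic and aerobic cultures in log2 RPKM, averaged over 3 strains, for each gene in YPD, 1-butanol and isobutanol; bars are 95% intervals and filled points passed an FDR of 1%. HEM25, HEM13, HEM14, HEM15 and HAP1 passed in all 3 media, and HEM1, HEM2, HEM3, HEM4 and HEM12 lay between −0.40 and 0.35.

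The 5 genes had values above 0 in each strain, with different sizes. In YPD HEM25 differed by 1.66 on the log2 scale in IL01, 1.06 in PAP and 0.80 in WA (SE 0.38 each). HAP1 differed by 3.18 in IL01, 2.38 in PAP and 1.95 in WA (SE 0.25 each), and HEM13 by 5.96, 5.34 and 5.02 (SE 0.17 each). In 1-butanol HAP1 differed by 2.85 in IL01, 2.39 in PAP and 0.95 in WA, and in isobutanol by 2.95, 2.38 and 1.59, so that WA had the lowest of the 3 values in each medium. The median over all genes also varied by strain, at 0.54 in IL01, 0.08 in PAP and 0.17 in WA in YPD, at 0.37, 0.25 and −0.01 in 1-butanol and at 0.33, 0.23 and 0.05 in isobutanol, and the values of each gene are to be read relative to these.

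Whether the oxygen difference itself depended on the strain was tested in YPD, where 0 of the 10 genes passed in limma (1.19% of all genes). At an unadjusted p under 0.05 there were 3, HEM2 (adjusted p = 0.11), HEM13 (0.17) and HAP1 (0.24), and the alternatives passed 0 genes with voom weights and 2, HEM2 and HAP1, in the fit of all 48 libraries. HEM14 (adjusted p = 0.72) passed without WA YPD aerobic replicate 2 (adjusted p = 0.00038). A test over YPD, 1-butanol and isobutanol together, with 36 libraries and added after the WA levels of HAP1 had been seen, passed 4 of the 10 genes (20.7% of all genes). HAP1 differed by 2.99 in IL01, 2.38 in PAP and 1.496 in WA (SE 0.11 each, adjusted p = 5.2e-07). HEM15 differed by 3.03, 2.38 and 1.86 (adjusted p = 2.7e-05) and HEM13 by 5.92, 5.94 and 5.20 (adjusted p = 0.0045). The smallest difference was in WA for each of these. For HEM2 the values were −0.14, −0.46 and 0.24 (adjusted p = 0.0034), and WA had the highest. In this fit HEM2 was also called lower without oxygen in PAP alone (adjusted p = 0.00065), and HEM12 was called higher in the mean of the strains (0.18, adjusted p = 0.0087).

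When oxygen was present, HAP1 was higher in WA than in the other strains, and so, by smaller ratios, was HEM13. Over the 8 aerobic libraries of each strain HAP1 was at 35.95 to 67.3 RPKM in WA, 15.9 to 19.7 in PAP and 12.3 to 17.8 in IL01. No WA library overlapped with the others. The mean of WA was 2.35 times that of PAP and IL01 together in YPD, 4.08 times in 1-butanol, 2.65 times in isobutanol and 2.40 times in ethanol. Without oxygen the same ratios were 1.32, 1.29 and 1.23, and 1.07 for the libraries labelled WA ethanol anaerobic; both WA libraries still lay above the 4 others in YPD and 1-butanol, and overlapped with them in isobutanol and ethanol. HEM13 went the same way with oxygen, with both WA libraries above the 4 others in every medium and ratios of 2.12, 2.21, 1.76 and 1.48. Over all aerobic libraries HEM13 was at 83.07 to 160.3 RPKM in WA and at 82.02 RPKM or less in PAP and IL01. The share of all genes that separate WA in this way was not counted. Strain differences were common, with 52.6% of all genes passing in at least 1 strain over the aerobic media. HAP1 and HEM13 correlated across the 12 aerobic group means at r = 0.860, a description over groups that share strains and media.

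Against the mean of the 3 strains in aerobic YPD, HAP1 was 0.83 higher in WA on the log2 scale (SE 0.14, adjusted p = 0.0065) and HEM13 0.73 higher (SE 0.10, adjusted p = 0.0019), and no other gene passed; 4.23% of all genes passed in at least 1 strain. These YPD calls were fragile. HAP1 was lost when any of 7 libraries was left out (IL01 YPD aerobic replicates 1 and 2, PAP YPD aerobic replicates 1 and 2, PAP YPD anaerobic replicate 2 and WA YPD anaerobic replicates 1 and 2; adjusted p up to 0.046), and HEM13 without PAP YPD aerobic replicate 1 or 2 (adjusted p = 0.016 and 0.017).

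Averaged over the 4 aerobic media the strains differed in 6 of the 10 genes, where 52.6% of all genes passed in at least 1 strain. HAP1 was 0.99 above the strain mean in WA (SE 0.04, adjusted p = 3.1e-11), at −0.35 in PAP and at −0.64 in IL01. HEM13 was at 0.61, −0.20 and −0.42 in the same order. HEM1 was higher in WA (0.38) and lower in IL01 (−0.39), and HEM15 was at 0.32 in WA, 0.18 in PAP and −0.50 in IL01. HEM12 was higher in WA (0.20) and lower in PAP (−0.27), and HEM2 was higher in PAP (0.26) and lower in IL01 (−0.30). HEM3, HEM4, HEM14 and HEM25 did not pass. The calls for PAP in HEM13 and HEM15 were fragile. That for HEM13 was lost without PAP 1-butanol replicate 2 (−0.17), PAP YPD replicate 1 (−0.19), PAP ethanol replicate 2 (−0.19) or PAP isobutanol replicate 1 (−0.19). That for HEM15 was lost without PAP 1-butanol replicate 1, WA 1-butanol replicate 2, PAP YPD replicate 1, IL01 ethanol replicate 1, PAP ethanol replicate 1 or 2 or PAP isobutanol replicate 2 (0.16 to 0.19, adjusted p up to 0.024).

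**Figure D3:**
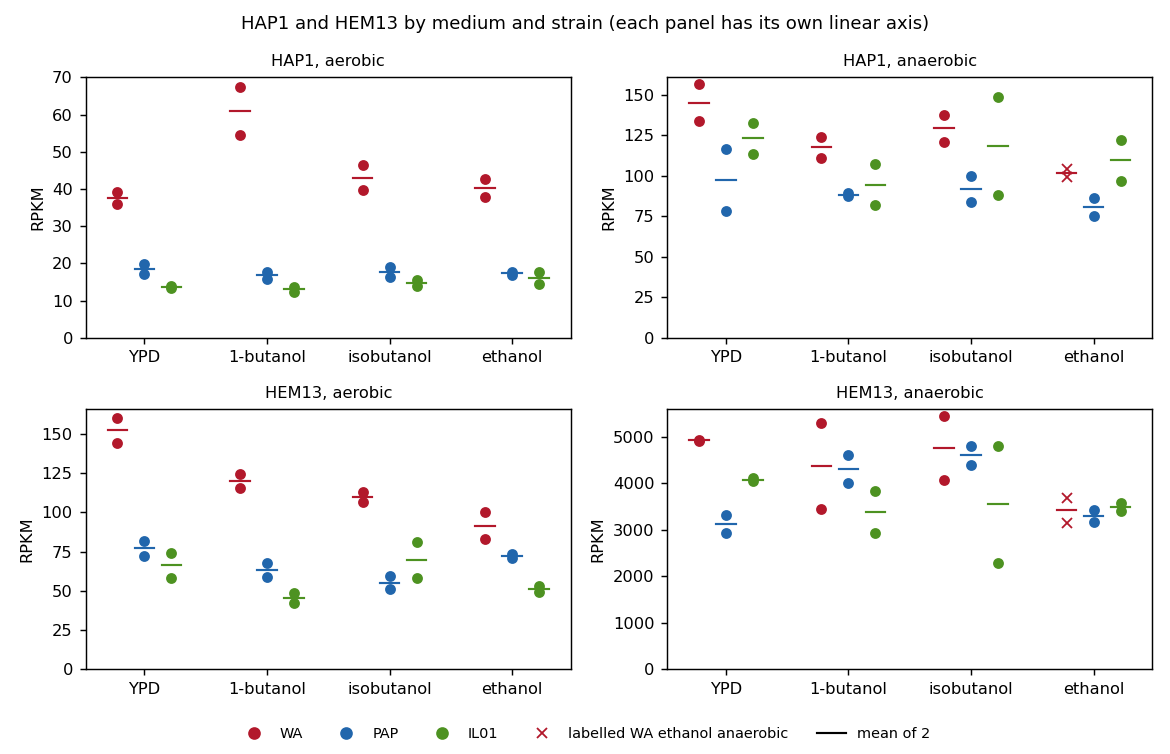
HAP1 (top) and HEM13 (bottom) in RPKM by medium, aerobic on the left and anaerobic on the right, each panel with its own linear axis from 0; points are libraries coloured by strain, lines are means of 2 and crosses are the libraries labelled WA ethanol anaerobic. With oxygen every WA value of HAP1 (35.95–67.3 RPKM) lay above those of PAP and IL01 (12.3–19.7 RPKM), and without oxygen WA lay above the others in YPD and 1-butanol and overlapped with them in isobutanol and ethanol.

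In anaerobic YPD HEM2 and HEM12 passed between the strains. HEM2 was higher in WA (log2 difference from the strain mean 0.61, SE 0.11, adjusted p = 0.0064), at 225 and 209 RPKM where PAP had 106 and 96.9 RPKM and IL01 126 and 133 RPKM. HEM12 was lower in PAP (−0.65, SE 0.13, adjusted p = 0.008), at 46.6 and 53.2 RPKM against 98.6 and 119 in WA and 88.9 and 87.2 in IL01. The groups named did not overlap with the others, and 7.46% of all genes passed in at least 1 strain. Both calls were lost whenever PAP YPD aerobic replicate 1 or 2 or any of the 6 anaerobic YPD libraries was left out (adjusted p up to 0.16 for HEM2 and 0.09 for HEM12).

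Averaged over the 4 anaerobic media 6 of the 10 genes passed (50.6% of all genes). With both libraries labelled WA ethanol anaerobic removed, ethanol was left out of the mean of every strain, and 5 passed (46.9% of all genes). HEM1 was at 204.9 to 271 RPKM in the 6 other anaerobic WA libraries. In the 12 libraries of PAP and IL01 in the same media it was at 85.7 to 203.4 RPKM, just short of overlap. The libraries labelled WA ethanol anaerobic had 124 and 102 RPKM. How many of all genes separate WA in this way was not counted. Without ethanol HEM1 was at −0.43 in IL01 against the strain mean (adjusted p from limma = 0.00024). In WA its difference from that mean was 0.44 (adjusted p = 1.8e-05), and 0.61 without ethanol. HEM14 showed the reverse: WA was at 49.3 to 77.8 RPKM in those 6 libraries, the other strains at 73.0 to 129 RPKM, with no overlap within a medium, and the labelled libraries at 98.9 and 117 RPKM. WA was at −0.36 (−0.48 without ethanol) for HEM14. HEM25 was lower in WA (−0.39, and −0.53 without ethanol) and higher in IL01 (0.42 both ways). HEM2 was higher in WA (0.35, and 0.42 without) and lower in IL01 (−0.22, and −0.35 without), and HEM12 was higher in WA (0.29, and 0.34 without) and lower in PAP (−0.39, and −0.36 without). The call for HAP1 in PAP (−0.25, adjusted p = 0.0064) was lost with ethanol left out for every strain (adjusted p = 0.024). With ethanol kept, it was lost without either of the libraries labelled WA ethanol anaerobic. It was also lost without any single PAP library of 1-butanol or isobutanol, PAP YPD replicate 2, PAP ethanol replicate 1, IL01 1-butanol replicate 1, IL01 YPD replicate 2, IL01 ethanol replicate 2, WA 1-butanol replicate 2 or WA YPD replicate 1 (−0.27 to −0.21, adjusted p up to 0.029). The call for HEM2 in IL01 was lost without any single IL01 library but isobutanol replicate 1, and without PAP 1-butanol replicate 1, PAP ethanol replicate 1, PAP isobutanol replicate 1, WA YPD replicate 1, WA isobutanol replicate 2 or the first library labelled WA ethanol anaerobic (−0.23 to −0.20, adjusted p up to 0.017).

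In aerobic cultures none of the 10 genes passed in any alcohol in the fit with a replicate block over all strains. With a block per strain and replicate number, 5 passed in 1-butanol (HEM3, HEM12 and HEM25 higher, HEM1 and HEM13 lower), 2 in isobutanol (HEM1 and HEM13 lower) and 1 in ethanol (HEM14 higher). Against YPD the calls in limma were 0 in 1-butanol (10.6% of all genes), 0 in isobutanol (10.4%) and 0 in ethanol (6.91%), with 6, 4 and 4 of the 10 genes at an unadjusted p under 0.05 and 1, 0 and 0 passing with voom weights. HEM25 was at 2.76 to 3.67 RPKM in the 6 YPD libraries and at 4.27 to 6.997 RPKM in the 6 of 1-butanol, with no overlap. Its log2 difference was 0.77 (SE 0.17, adjusted p = 0.011) in 1-butanol, 0.70 (adjusted p = 0.056) in isobutanol and 0.39 (adjusted p = 0.15) in ethanol, and it was above YPD in 6 of 6 pairs of the same strain and replicate number in each alcohol. HEM13 was at −0.39 (adjusted p = 0.014), −0.30 (0.037) and −0.40 (0.023), below YPD in 6, 5 and 6 of the 6 pairs. The median over all genes was higher in each alcohol (0.22, 0.18 and 0.22), and under quantile normalization, which removes that shift, HEM13 passed as lower in all 3 (−0.62, −0.47 and −0.58). HEM14 was at 0.63, 0.59 and 0.93. The value of HEM14 rested on WA YPD aerobic replicate 1, which had 13.5 RPKM where replicate 2 had 5.73, and without it passed in 1-butanol (0.92, adjusted p = 0.002), isobutanol (0.91, adjusted p = 0.0025) and ethanol (1.23, adjusted p = 8.6e-05). Without the same library HEM12 (0.40, adjusted p = 0.0088), HEM13 (−0.40, adjusted p = 0.0097) and HEM25 (0.82, adjusted p = 0.0052) also passed in 1-butanol. HAP1 was at 0.09 to 0.17 against YPD, with intervals from −0.16 to 0.42. In 1-butanol HAP1 was above YPD in 2 of 6 pairs, those of WA, and below it in the pairs of PAP and IL01. The WA replicates had 39.1 and 35.95 RPKM in YPD and 67.3 and 54.4 RPKM in 1-butanol.

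Without oxygen HEM15 was higher in the butanols. It was at 139 to 211 RPKM in YPD, 308 to 589 in 1-butanol, 204 to 350 in isobutanol and 187 to 262 in ethanol, so that 1-butanol did not overlap with YPD and isobutanol overlapped by 1 value of WA, 204 RPKM. The log2 difference was 1.39 (SE 0.17, 2.62-fold, adjusted p = 1.9e-08) in 1-butanol and 0.66 (SE 0.15, adjusted p = 0.0049) in isobutanol, and 0.22 (adjusted p = 0.17) in ethanol, where it was 0.37 (adjusted p = 0.14) without the libraries labelled WA ethanol anaerobic. HEM25 was at 5.17 to 10.7 RPKM in YPD, 5.98 to 17.9 in 1-butanol and 8.01 to 17.4 in isobutanol, with log2 differences of 0.67 (SE 0.19, adjusted p = 0.0054) and 0.69 (SE 0.17, adjusted p = 0.0086). These were the 2 genes called higher in each butanol, where 20.2% of all genes were higher in 1-butanol and 11.3% in isobutanol. In 1-butanol the HEM25 values of WA, 5.98 and 6.66 RPKM, lay within its YPD range, and those of PAP and IL01 were 14.2 to 17.9 RPKM.

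The HEM15 call in 1-butanol held whichever library was left out, with log2 differences of 1.28 to 1.501. The others were less firm. HEM25 in 1-butanol was lost without IL01 1-butanol replicate 1, any PAP or WA 1-butanol library, any IL01 YPD library or WA YPD replicate 1 (log2 differences 0.60 to 0.71, adjusted p up to 0.046). HEM15 in isobutanol was lost without any IL01 or WA YPD library, any PAP isobutanol library or WA isobutanol replicate 2 (0.60 to 0.71, adjusted p up to 0.029). HEM25 in isobutanol was lost without any of the 12 libraries except IL01 isobutanol replicate 2 (0.57 to 0.77, adjusted p up to 0.049). HEM25 was also lost under quantile normalization (0.40 in 1-butanol and 0.45 in isobutanol) and median centring (0.47 and 0.55), and in isobutanol with no filter on low values (adjusted p = 0.012) and no trend (0.011). Some genes passed when 1 library was left out: HEM14 was lower in 1-butanol without PAP YPD anaerobic replicate 2 (−0.48) and in isobutanol without IL01 isobutanol anaerobic replicate 2 (−0.49).

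In anaerobic ethanol HEM1 was called lower (log2 difference −0.56, SE 0.11, adjusted p = 0.00095), the 1 gene of the 10 (4.60% of all genes lower), at 100 to 144 RPKM against 122 to 271 in YPD. WA contributed most, with 249 and 271 RPKM in YPD and 124 and 102 in the libraries labelled WA ethanol anaerobic. Without these 2 libraries the difference was −0.24 (adjusted p from limma = 0.34) and no gene of the 10 passed. Of all genes 5.19% then passed in either direction, a share unlike the 4.60% that counts lower genes only. Without the first of them alone the call was lost as well (−0.54, adjusted p = 0.01). Without PAP YPD anaerobic replicate 1, HEM15 (0.32) and HEM25 (0.47) passed as higher, and without replicate 2 HAP1 (−0.42) passed as lower.

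**Figure D4:**
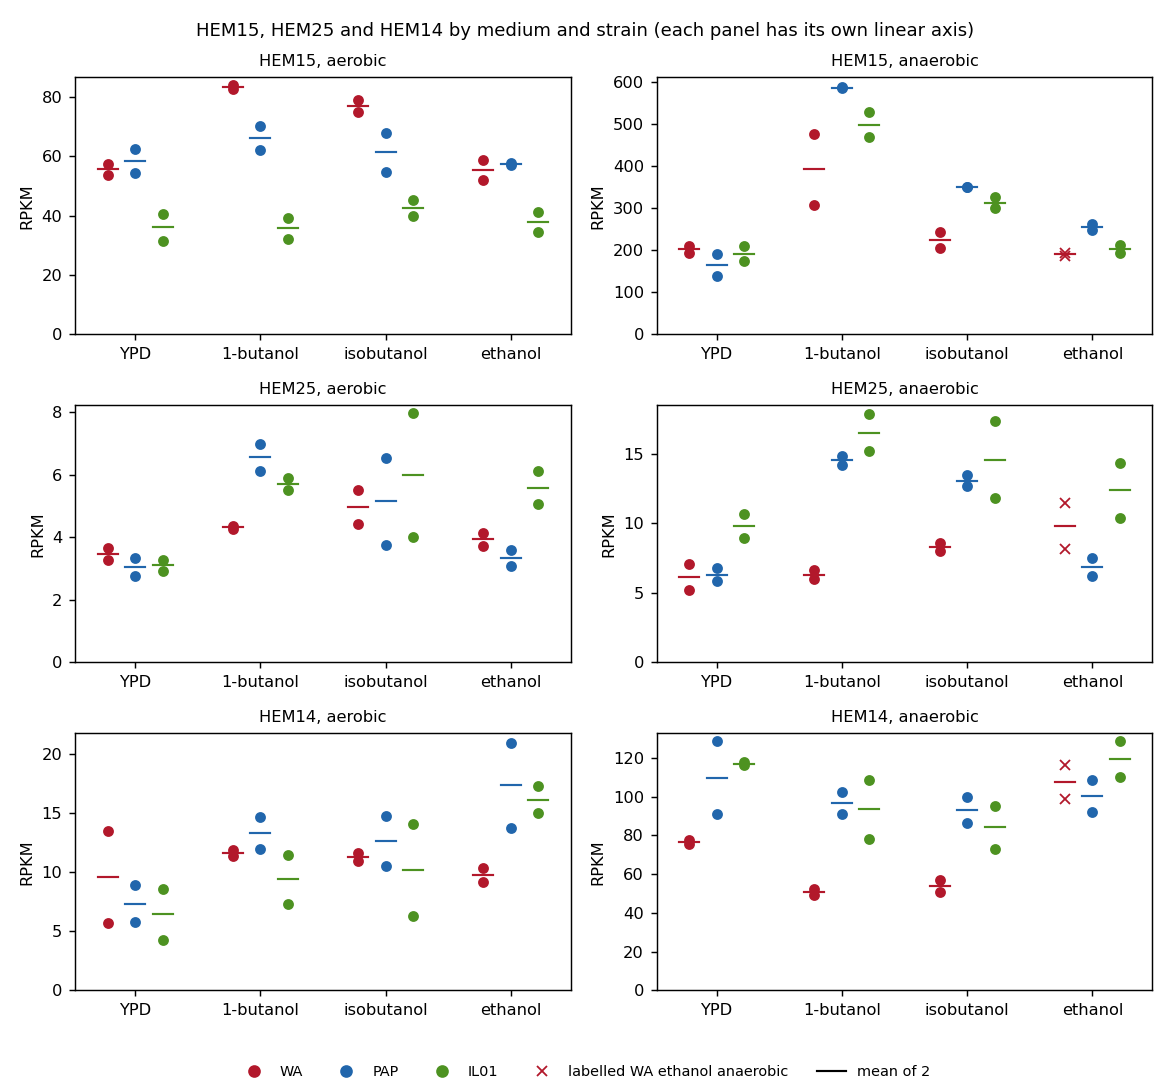
HEM15, HEM25 and HEM14 from top to bottom in RPKM by medium, aerobic on the left and anaerobic on the right, each panel with its own linear axis from 0; points are libraries coloured by strain, lines are means of 2 and crosses are the libraries labelled WA ethanol anaerobic. Anaerobic HEM15 was at 308–589 RPKM in 1-butanol against 139–211 RPKM in YPD, and anaerobic HEM14 was lower in WA than in the other strains of the same medium except in the crossed libraries.

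The response of HEM15 to 1-butanol differed between the oxygen conditions. Aerobic levels were 31.6 to 62.5 RPKM in YPD and 32.2 to 84.1 in 1-butanol, a log2 difference of 0.25 (adjusted p = 0.12), beside 1.39 without oxygen. The difference of the differences was 1.14 (SE 0.19, adjusted p = 0.00042), and HEM15 was the 1 gene of the 10 that passed in that direction (4.03% of all genes). By strain it was 1.67 in PAP, 1.40 in IL01 and 0.35 in WA (SE 0.32 each), and whether the strains differ in it was not tested. HEM14 went the other way (−0.996, adjusted p = 0.039) and passed without WA YPD aerobic replicate 1 (−1.29, adjusted p = 0.00018). For isobutanol 0 of the 10 genes passed (3.06% of all genes; 3 at an unadjusted p under 0.05 and 0 with voom weights), with HEM15 at 0.39 and HEM14 at −1.002 (adjusted p = 0.087), which passed without the same library (−1.32, adjusted p = 0.00078).

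A dependence of the alcohol differences on the strain passed for 0 of the 10 genes in each of the 6 comparisons. The share of all genes that passed with oxygen was 0.161% (1-butanol), 0.214% (isobutanol) and 0% (ethanol), and without oxygen 2.32%, 0.404% and 4.30%. At an unadjusted p under 0.05 there were 1, 1 and 0 of the 10 with oxygen and 0, 1 and 3 without, and voom weights passed 0 in each. HEM1 in anaerobic ethanol came nearest (adjusted p = 0.03), and without the libraries labelled WA ethanol anaerobic it was at 0.82, where 0.425% of all genes passed. HEM1 in anaerobic ethanol also passed without PAP YPD anaerobic replicate 1 (adjusted p = 0.0015), as did HEM2 (0.0046) and HEM15 (0.0029), and HEM1 passed without replicate 2 of that group (0.0044). HEM14 in aerobic ethanol passed without WA YPD aerobic replicate 2 (adjusted p = 0.0068).

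**Figure D5:**
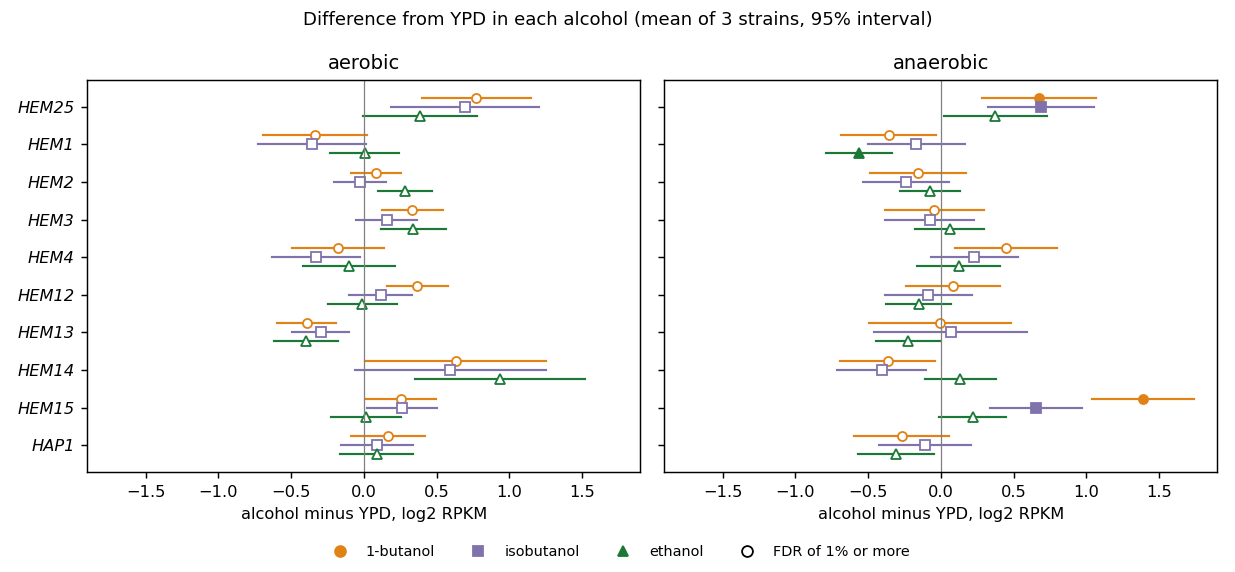
Difference from YPD in log2 RPKM for each gene in 1-butanol (circles), isobutanol (squares) and ethanol (triangles), averaged over 3 strains, with oxygen on the left and without on the right; bars are 95% intervals and filled symbols passed an FDR of 1%. HEM15 in anaerobic 1-butanol (1.39) lay furthest from 0, no aerobic symbol is filled, and the anaerobic triangles, that of HEM1 (−0.56) filled, include the libraries labelled WA ethanol anaerobic.

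Genes around the pathway were grouped by role to show what moved beside it. Of 15 genes that use, modify or break down heme or handle iron beside it, 2 were higher and 4 lower without oxygen in YPD, 5 and 6 in 1-butanol and 3 and 5 in isobutanol. Over all genes tested 25.3% were higher and 14.0% lower in YPD, 36.3% and 22.5% in 1-butanol and 30.5% and 18.3% in isobutanol, and the counts of this list and of the lists that follow stand beside these shares. The median log2 difference of the 15 genes was −0.03 in YPD, where that of all genes was 0.27. HMX1, the heme oxygenase that degrades heme, went from 13.9–57.9 RPKM (135 to 473 reads) to between 0 and 3 reads per library in YPD. DAP1, which binds heme and aids sterol synthesis, was higher (log2 difference 2.69), and COX15 (−2.59), which makes heme A, and CYC3 (−1.45), which attaches heme to cytochrome c, were lower.

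Of 10 regulators of the oxygen and heme response, 1 was higher and 3 lower in each of the 3 media (all genes, 25.3% to 36.3% higher and 14.0% to 22.5% lower), with a median of 0.30 in YPD. ROX1, the repressor of hypoxic genes, fell from 31.7–98.3 RPKM (272 to 931 reads) to between 0 and 6 reads per library in YPD. UPC2, an activator of sterol and anaerobic genes, was higher (4.55), and HAP4, the activating subunit of the CCAAT-binding complex (−3.54), and MOT3, a repressor of hypoxic genes (−3.31), were lower. The level of HAP1 was thus higher where that of ROX1, a gene Hap1 is known to activate, was lower.

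Among 8 known Hap1 targets 0 were higher and 6 lower in YPD, 2 and 5 in 1-butanol and 2 and 4 in isobutanol (all genes, 14.0%, 22.5% and 18.3% lower), with a median log2 difference of −3.84 in YPD. CYC1, the main cytochrome c gene, was at 612 to 1038 RPKM with oxygen and had 1 to 3 reads per library without in YPD. CYC7, the lesser cytochrome c gene, was lower in YPD as well (−1.76). CYT1, the cytochrome c partner in complex III of the respiratory chain, was at −7.29 and HMG1, a reductase early in sterol synthesis, at −4.81. Of the 14 heme proteins tested in YPD, a list that shares CTT1, CYB2, CYC1, CYC7, CYT1 and YHB1 with the Hap1 targets, 1 was higher and 10 lower, with 4 and 9 of 14 in 1-butanol and 4 and 7 of 13 in isobutanol (the same shares of all genes), and the median was −1.69 in YPD. ERG5 (−5.38), a cytochrome P450 of sterol synthesis, and FRE1 (−5.00), a ferric reductase, were lower, and OLE1 (1.81), the fatty acid desaturase, was higher. Among 9 genes for the supply of glycine and succinyl-CoA 2 were higher and 2 lower in YPD and in isobutanol, and 5 and 2 in 1-butanol, beside the shares of all genes (25.3% higher and 14.0% lower in YPD, 30.5% and 18.3% in isobutanol, 36.3% and 22.5% in 1-butanol). Their median was −0.16 in YPD. Those in YPD were LSC2 (1.18) and LSC1 (−0.46), which encode the subunits of succinyl-CoA ligase, and SHM2 (0.59) and SHM1 (−0.80), which encode the cytosolic and mitochondrial enzymes that make glycine from serine.

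Likeness was measured as Pearson's r of log2 RPKM over the 24 group means among 4494 genes with a mean of at least 10 RPKM, and is a description with no test, since the groups share strains and media. The genes most like HEM13 were AUS1 (r = 0.991), a sterol importer, DAN1 (0.990), a cell wall protein of anaerobic cells, and YPR145C-A (0.988). HAP1 was most like SDS24 (0.968), FAS1 (0.963), a subunit of fatty acid synthase, and HMG2 (0.963), a reductase of sterol synthesis. HEM1 was most like UTH1 (0.918), PAT1 (0.865) and NUP159 (0.858). Without WA ethanol anaerobic the same 3 genes led for HEM13 and HAP1, and SIM1 (0.870) was the third for HEM1. The high values for HEM13 and HAP1 lie along the split between the oxygen conditions, while HEM1 has no such split. FAS1 was also among the 3 genes most like HAP1 over the 12 aerobic groups alone (r = 0.961), whereas SDS24 and HMG2 were not. Among the 10 genes, r over the 24 groups was 0.939 for HEM13 with HAP1, 0.949 with HEM14 and 0.933 with HEM15, and −0.006 for HEM1 with HEM13, and over 23 groups without WA ethanol anaerobic it was 0.937, 0.948, 0.935 and 0.034. Over the 11 anaerobic groups without WA ethanol, HEM13 and HAP1 correlated at 0.517.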

How the data were processed

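The authors trimmed single-end reads with Trimmomatic, aligned them to S288c (R64) with BWA and took gene counts with HTSeq. They deposited log2 RPKM, in which genes without reads are listed at 0. The main fits took these values as deposited, so a gene without reads entered as if at 1 RPKM and could stand above genes with few reads. The 10 genes had reads in every library. Shares of all genes, and log2 differences of other named genes with few or no reads, depend on this coding. Whole reads were recovered from the RPKM steps for 6000 of 6713 genes (89.38%, tolerance 0.01). Each comparison was fitted across all genes with a mean of at least 1 RPKM in limma 3.58.1 (R 4.3.3), with groups, a replicate block within each oxygen condition and a trended prior, and Benjamini-Hochberg adjustment; the FDR threshold was 1%. The study paired its replicates, but whether a number marks 1 day across strains is not given in the sources used here: deviations of same-numbered libraries correlated at a median of 0.082 with oxygen and 0.069 without (66 pairs of groups each), and at 0.187 and 0.113 between groups of 1 strain (18 pairs each). The scripts were tested on simulated data. All 10 genes were tested in every comparison, though not every value is given. From the other lists, up to 4 genes with the largest change past the threshold in YPD are named. Where none passed, the 2 with the highest mean RPKM are named. Known partners (ROX1, HAP4, CYC1, CYC7, HMX1) and, for HEM13, HEM1 and HAP1, the 3 most alike genes are named as well. Genes and lists were chosen with earlier results of these data known. Names, positions and promoters are from RefSeq R64. In the table, 4 lines were not analysed here.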

Additional observations from a re-analysis of the deposited data

Results flagged for a closer look

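HEM15 is listed because its difference between 1-butanol and YPD was not the same with and without oxygen: the difference of the differences was 1.14 on the log2 scale, with an adjusted p from limma of 0.00042.

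Another 4 results are listed because the oxygen difference depended on the strain over YPD, 1-butanol and isobutanol, in a test added after the data had been seen. The adjusted p from limma was 5.179e-07 for HAP1, 2.729e-05 for HEM15, 0.003369 for HEM2 and 0.004528 for HEM13. In YPD alone, with 12 libraries, the adjusted p for the same question was 0.24 for HAP1, 0.47 for HEM15, 0.11 for HEM2 and 0.17 for HEM13. Why these values differ between strains was not tested.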

How the results depend on the processing

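No value changed direction among those with a call, under any alternative run. Of the counts of called genes for the 22 comparisons, 154 of the values under other settings stayed within 1.5 times the main count, 10 were lower and 30 higher, and the cause was not tested. The counts below are of the 10 genes, with the main count first, and join calls in either direction. In 1-butanol without oxygen, those under quantile normalization and median centring did not include HEM25. 1-Butanol with oxygen had 0, and 1 under log2(RPKM + 1), quantile normalization, median centring, no trend and voom weights, and 3 with all 48 libraries in 1 fit. Isobutanol with oxygen had 0, against 2 (quantile normalization), 1 (median centring) and 1 (all 48 libraries); ethanol with oxygen had 0, against 1 under the same 3. Without oxygen, 1-butanol had 2, against 4 under quantile normalization and median centring; isobutanol had 2, against 1 with no filter on low values and with no trend; ethanol had 1, against 3 under quantile normalization, 2 under median centring and 0 without both libraries labelled WA ethanol anaerobic. The dependence on strain without oxygen had 0, against 1 with all 48 libraries for isobutanol and 1 under quantile normalization for ethanol. Strains in aerobic YPD had 2, against 1 with no filter, 1 under median centring, 0 with no trend and 4 with all 48 libraries; in anaerobic YPD 2, against 0 with no filter, median centring and no trend and 1 with voom weights. Strain by oxygen in YPD had 0, against 2 with all 48 libraries and 4 in the added fit of 36. 1-Butanol by oxygen had 1, against 3 under quantile normalization and 2 under median centring and with all 48 libraries; isobutanol by oxygen had 0, against 1 with all 48.

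The replicate block was part of the main fit. With no replicate block 1-butanol with oxygen had 1 call in place of 0. With a block per strain and replicate the counts were 5 for 1-butanol, 2 for isobutanol and 1 for ethanol with oxygen, all from 0, and 2 for 1-butanol by oxygen, from 1. No other count of calls moved by over 1.5 times under either block, and for oxygen in YPD the count was 5 with no replicate block. With no replicate block the call for HEM12 in WA over the aerobic media was lost (adjusted p = 0.018).

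Leaving out 1 library at a time gave 4 to 5 for oxygen in YPD and 5 to 5 in 1-butanol and isobutanol; with oxygen, 0 to 4 for 1-butanol, 0 to 1 for isobutanol and 0 to 1 for ethanol; without, 1 to 3, 0 to 3 and 0 to 3. For the dependence on strain it gave 0 to 0 for both butanols in either condition, 0 to 1 for ethanol with oxygen and 0 to 3 without. Strains in YPD had 0 to 3 in each condition, strains over media 6 to 7 with oxygen and 5 to 6 without, strain by oxygen 0 to 1, 1-butanol by oxygen 1 to 2 and isobutanol by oxygen 0 to 1. Depth limits HEM25 most, at 21 to 172 reads per library, and 2 replicates per group limit the tests within a strain.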
